A study of Mus musculus with 24 samples.

Results

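The genes described here encode the enzymes and coat proteins that place triglyceride in the heart, keep it in lipid droplets and release it again. They are the lipases and esterases Lpl, Pnpla2, Lipe, Mgll and Ces1d, the lipase inhibitor Angptl4, the perilipins Plin2, Plin4 and Plin5, and the synthetic enzyme Dgat2. Each member was the row of the expression table whose gene name equalled the symbol, and all 10 had 1 row among the 19660 rows used. The hearts came from adult C57BL/6J mice without treatment, 6 for each of 4 genotypes and 3 of each sex within a genotype. WT hearts carried no transgene. OGA_TG hearts carried a cardiac specific transgene for OGA, the enzyme that takes O-GlcNAc off proteins, and OGT_TG hearts one for OGT, the enzyme that adds it. OGT_TG_x_OGA_TG hearts carried both transgenes and are called double transgenic below. The promoter that drives the transgenes is not given in the sources used here. Whole hearts were homogenised, so the RNA is that of all heart cells, and fewer cells of a type cannot be told apart from less RNA per cell. Labels name each heart as a separate sample, and p-values measure the spread between hearts.

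Muscle cells of the heart burn mostly fatty acids. Lipoprotein lipase frees them from circulating triglyceride at the capillary wall, and what is not burned at once is esterified and stored in droplets. Stored triglyceride is taken apart in steps by adipose triglyceride lipase, hormone-sensitive lipase and monoacylglycerol lipase, with perilipins on the droplet surface governing access. Fatty acids released in this way are also known as activators of the nuclear receptor PPARα, and several of these genes are in turn PPAR targets.

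The values are FPKM, fragments per kilobase of transcript and per M mapped fragments, as the authors deposited them. Libraries were estimated to hold 11.25 to 17.65 M fragments, and the sum of FPKM from 463500 to 513602. Differences below are on the log2(FPKM + 1) scale from limma, with 12020 rows tested, and a gene is called where the Benjamini-Hochberg adjusted p is under 0.05 over all of these rows. The transgene rows followed the labels, the OGT row with a lowest value of 715 FPKM in OGT_TG against a highest of 3.44 FPKM in WT. On principal component 1, with 40.8% of the variance, OGT_TG replicates 3 and 6 scored 52.7 and 52.9 and the other OGT_TG hearts 11.4 to 17.9, so several results that rest on OGT_TG are also given without both. Median-of-ratios scaling moved the median difference of all rows between double transgenic and OGT_TG hearts from -0.11 to 0.00, and between OGT_TG and WT from 0.06 to -0.00. With it, the calls between OGT_TG and WT went from 3029 higher and 1470 lower to 2168 higher and 2122 lower, and those between double transgenic and OGT_TG hearts from 604 higher and 3274 lower to 1383 higher and 1477 lower.

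FPKM is a level per length, so WT means can be set side by side between genes. All 10 members passed the filter on low rows, though Angptl4 was under 1 FPKM in WT replicate 1. Lpl was the highest at 1766 ± 151 FPKM (SD, n = 6) and ranked 28 of 19660 rows by its WT mean. Dgat2, Pnpla2 and Ces1d followed at 131 ± 12.4, 107 ± 20.2 and 92.4 ± 15.2 FPKM. Plin4, Mgll, Plin5 and Plin2 stood between 34.0 and 54.1 FPKM, Lipe at 16.9 and Angptl4 at 6.25 FPKM. Plin1, the perilipin that coats droplets of fat cells, was at 0.296 ± 0.297 FPKM in WT. Across all 24 hearts, Angptl4 and Ces1d had the widest ranges, with a highest heart 33.8 and 27.8 times the lowest. Mgll had the narrowest, at 1.59 times.

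Plin4 and Plin5 are neighbours on the minus strand of mouse chromosome 17, and both were lower in OGT_TG hearts, whereas Plin2 on chromosome 4 was not. In the mm10 build with GENCODE M21 genes, Plin4 lies at chr17:56100591-56109803, Plin5 at chr17:56111601-56117596 and Plin2 at chr4:86648386-86670060, with 1797 bases between the former pair. The 250 bases before their start sites are shown because the 3 coats differed in response. They are from RefSeq on GRCm38.p6 and read 5′ to 3′ on the minus strand, at chr17:56109783-56110032 for Plin4, chr17:56117549-56117798 for Plin5 and chr4:86670060-86670309 for Plin2. Capitals mark AGGTCA, the half-site bound by nuclear receptors such as the PPARs, and the CCAAT box, each searched on both strands.
Plin4: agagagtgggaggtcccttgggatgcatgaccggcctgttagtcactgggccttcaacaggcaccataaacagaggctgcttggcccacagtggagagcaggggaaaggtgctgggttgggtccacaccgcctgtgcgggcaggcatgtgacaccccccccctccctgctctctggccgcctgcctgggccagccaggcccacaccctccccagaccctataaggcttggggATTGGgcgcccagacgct
Plin5: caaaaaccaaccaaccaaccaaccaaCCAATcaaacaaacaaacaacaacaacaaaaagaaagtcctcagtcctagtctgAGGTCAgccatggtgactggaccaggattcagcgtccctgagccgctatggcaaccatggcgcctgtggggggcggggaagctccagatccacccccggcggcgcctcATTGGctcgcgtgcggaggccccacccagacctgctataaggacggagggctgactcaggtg
Plin2: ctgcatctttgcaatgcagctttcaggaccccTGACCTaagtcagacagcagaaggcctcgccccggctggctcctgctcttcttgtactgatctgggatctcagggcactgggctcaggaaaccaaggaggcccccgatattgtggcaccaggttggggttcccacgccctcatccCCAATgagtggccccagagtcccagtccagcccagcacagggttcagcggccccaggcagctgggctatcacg
AGGTCA occurred once before Plin5, with its first base at -170, and once on the other strand before Plin2, with its first base at -218 as counted from the start site. No AGGTCA was found in the Plin4 window. CCAAT was found at -224 and, on the other strand, at -62 before Plin5, at -73 before Plin2 and, on the other strand, at -18 before Plin4. Of 32851 RefSeq promoters, 14.02% held AGGTCA and 33.85% held CCAAT in such a window. A pair of AGGTCA half-sites on the same strand with 1 base between them, the repeat bound by PPAR with its partner RXR, was in 0.03% and in none of these 3. TATAAA, searched in the same way, was in 12.37% and also in none of the 3. RefSeq upstream sequence was also read for Pnpla2, Lipe and Mgll, and none of these windows held any of the motifs. The table of upstream sequence had no entry for Ces1d, Lpl, Angptl4 and Dgat2.

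The comparison of OGT_TG with WT hearts asks what added OGT does to these transcripts. Ces1d, Lpl, Dgat2, Plin5, Plin4 and Pnpla2 were lower, 6 of 10 members, and none was higher. Over all tested rows 37.4% were called, 12.2% lower and 25.2% higher. The median difference of the 10 members was -0.40 and that of all tested rows 0.06. Lipe, Mgll, Plin2 and Angptl4 did not pass the test.

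**Figure D1:**
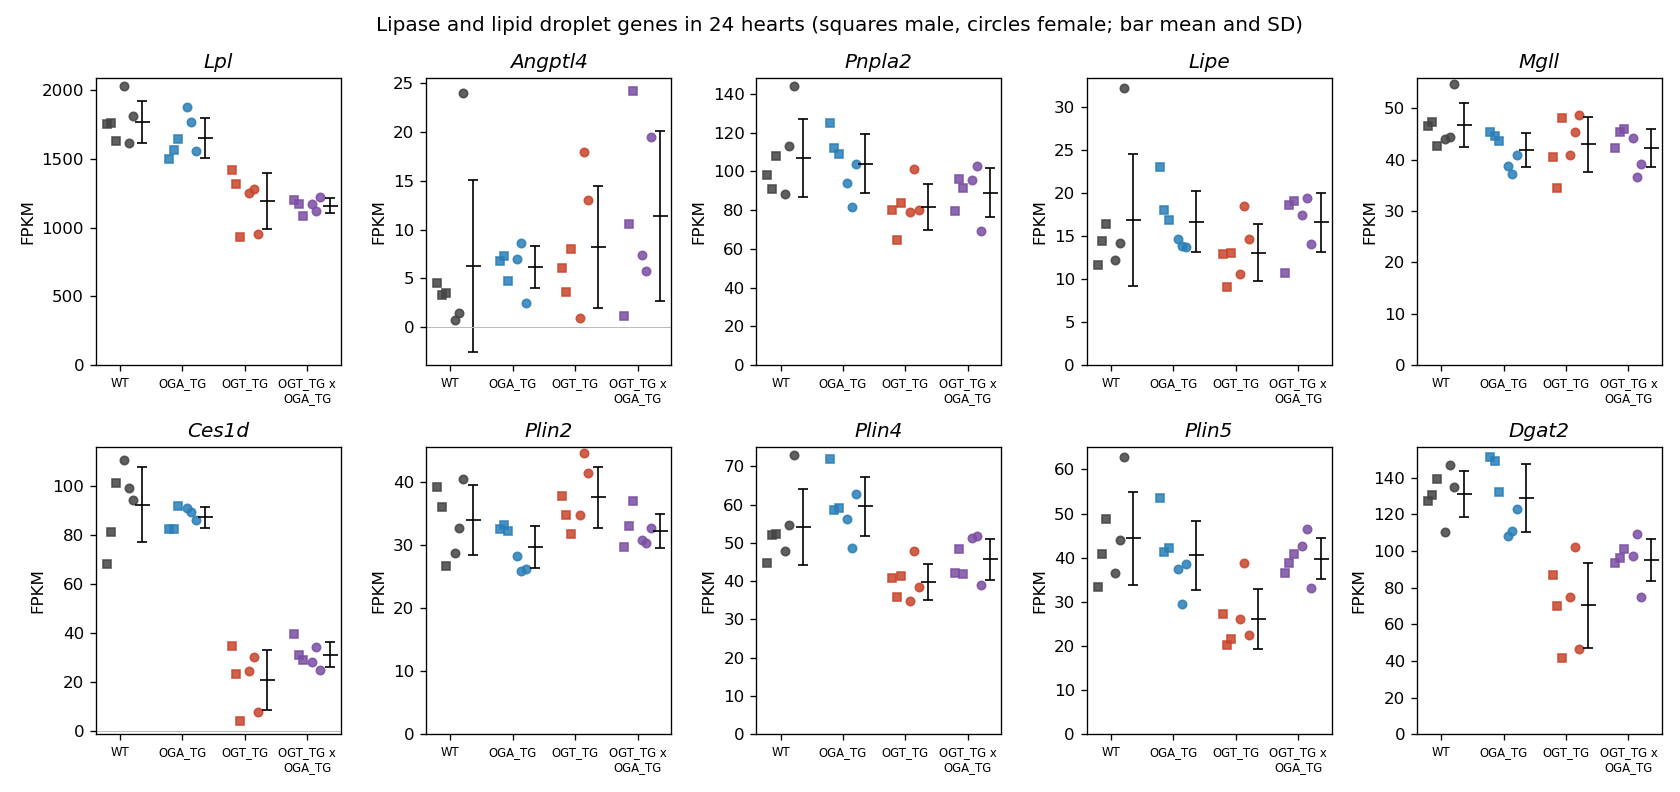
FPKM of each member (vertical axes) in each of 24 hearts by genotype (horizontal axes), squares for males and circles for females, with the mean and SD of 6 hearts beside the points. Ces1d of all 12 hearts with the OGT transgene lies below every WT and OGA_TG heart, while the lower end of the SD bar of Angptl4 in WT falls under 0 because 1 heart stands at 23.9 FPKM.

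Lpl, the lipase that feeds circulating fatty acids to the muscle cell, lies at chr8:68880491-68907448 on the plus strand. Its level in WT ranged from 1614 to 2029 FPKM with a median of 1758 FPKM, and in OGA_TG from 1498 to 1873 FPKM with a median of 1606 FPKM. In OGT_TG hearts it ranged from 930.5 to 1417 FPKM with a median of 1266 FPKM, and in double transgenic hearts from 1083 to 1223 FPKM with a median of 1169 FPKM. No heart with the OGT transgene reached the lowest heart without it. The difference to WT was -0.58 in OGT_TG (SE 0.09, limma adjusted p = 3.9e-05) and -0.60 in double transgenic hearts (SE 0.09, adjusted p = 8.8e-05). Without OGT_TG replicates 3 and 6, at 953 and 930.5 FPKM, the OGT_TG difference was -0.42 (adjusted p = 6.1e-05). In the values as deposited, OGT_TG and double transgenic hearts differed by -0.02, with a 95% interval from -0.21 to 0.17. A return of Lpl towards WT of more than 0.17 lay outside that interval, but the bound depends on the scaling. By median of ratios the differences to WT were -0.66 in OGT_TG and -0.55 in double transgenic hearts. By quantiles they were -0.47 and -0.61, in the opposite order.

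Angptl4 encodes a secreted inhibitor of lipoprotein lipase and is a PPAR target that rises in fasting. It lies at chr17:33773750-33781830 on the minus strand. In WT it ranged from 0.714 to 23.9 FPKM with a median of 3.44 FPKM, and in OGA_TG from 2.53 to 8.58 FPKM with a median of 6.9 FPKM. OGT_TG hearts ranged from 0.941 to 17.9 FPKM with a median of 7.01 FPKM, and double transgenic hearts from 1.18 to 24.1 FPKM with a median of 8.99 FPKM. Every genotype thus overlapped every other, and the heart with the lowest value, WT replicate 1, held an estimated 31 fragments of the gene. Differences to WT were 0.62 in OGT_TG (SE 0.61, adjusted p = 0.45), 0.52 in OGA_TG (SE 0.61, adjusted p = 0.88) and 1.00 in double transgenic hearts (SE 0.61, adjusted p = 0.29). The 95% interval in OGT_TG ran from -0.64 to 1.87, so changes of either sign were within reach of this spread. With each heart left out in turn, the difference to WT ranged from 0.3 to 1.11 in OGT_TG and from 0.68 to 1.5 in double transgenic hearts. Neither passed under any setting.

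The highest Angptl4 hearts were set beside Ucp3, a mitochondrial carrier whose gene is a PPAR target. Ordered by Angptl4, the first 4 of 24 hearts were double transgenic replicate 5, WT replicate 3, double transgenic replicate 6 and OGT_TG replicate 2, and the same 4 were the first 4 by Ucp3, at 48.1 to 73.8 FPKM. Further down the orders parted, with 4 of the first 6 hearts shared. OGT_TG replicate 3, the fifth by Angptl4, was at place 18 by Ucp3, and OGT_TG replicate 6, at place 8 with 7.96 FPKM, had the lowest Ucp3 of all at 4.59 FPKM. Pdk4, the kinase that shuts off pyruvate use and likewise a PPAR target, shared 3 of its first 4 hearts with Angptl4. WT replicate 1 went against it, second by Pdk4 at 374 FPKM and last by Angptl4. Both genes were chosen for this account after their values were seen. By distance between profiles the nearest rows to Angptl4 were Klf11, Txnip and Klf10, with root mean square distances of 0.44, 0.56 and 0.76 SD over 24 hearts. The first 4 hearts by Angptl4 came from 3 genotypes but shared numbers in their sample titles, whose meaning is not stated. Double transgenic replicates 5 and 6 both carry 2298, and WT replicate 3 and OGT_TG replicate 2 both carry 2048. OGT_TG replicate 3, the fifth, also carries 2048, as does WT replicate 2, at place 21. The labels record neither feeding nor the time of collection, and the part of the title number was not tested.

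**Figure D2:**
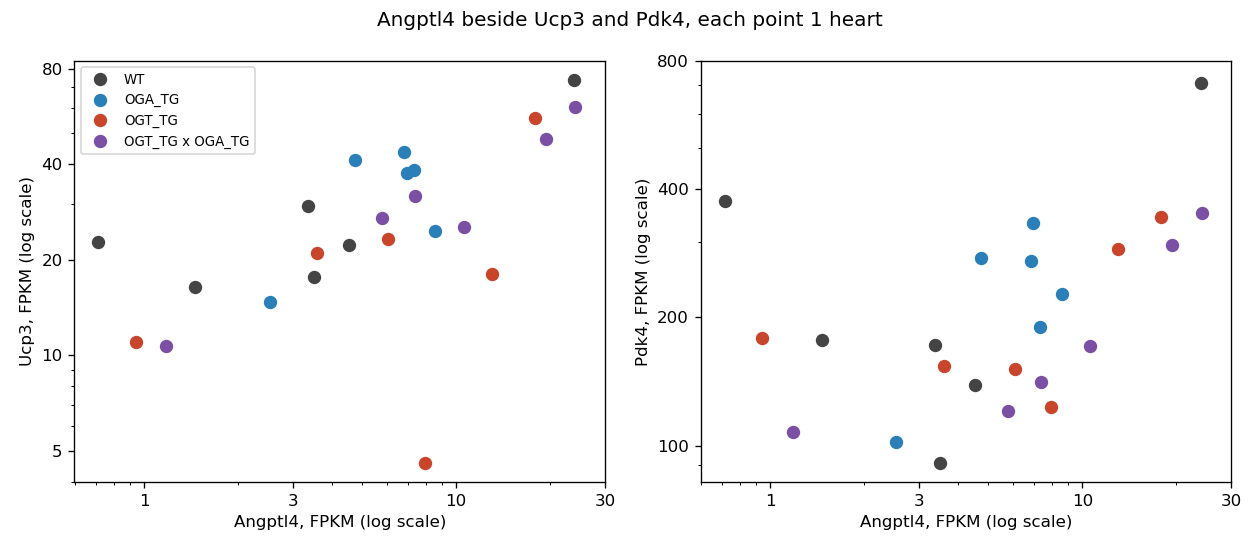
Ucp3 (left) and Pdk4 (right) against Angptl4, all in FPKM on log axes, with 1 point for each of 24 hearts coloured by genotype. The 4 hearts highest in Angptl4 are the 4 highest in Ucp3, OGT_TG replicate 6 is the lowest in Ucp3 at 4.59 FPKM with an Angptl4 of 7.96 FPKM, and WT replicate 1 is lowest in Angptl4 at 0.714 FPKM with a Pdk4 of 374 FPKM.

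Pnpla2 encodes adipose triglyceride lipase, which takes the first fatty acid from stored triglyceride, and lies at chr7:141455198-141460743 on the plus strand. WT hearts ranged from 88.5 to 144 FPKM with a median of 103 FPKM, and OGA_TG hearts from 81.4 to 125 FPKM with a median of 107 FPKM. OGT_TG hearts ranged from 64.6 to 101 FPKM with a median of 80.1 FPKM, and double transgenic hearts from 69.1 to 103 FPKM with a median of 93.6 FPKM. Of the OGT_TG hearts, 5 of 6 lay below every WT heart. Pnpla2 was lower in OGT_TG than in WT by a difference of -0.38 (SE 0.12, adjusted p = 0.018). WT replicate 3, the highest at 144 FPKM, carried that call, since without it the difference was -0.29 (adjusted p = 0.056). In double transgenic hearts the difference to WT was -0.25 (adjusted p = 0.17).

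Lipe, the gene of hormone-sensitive lipase, which acts on the diglyceride left by the first step, lies at chr7:25379527-25398710 on the minus strand. Its medians were 14.3, 15.8, 12.9 and 18.1 FPKM in WT, OGA_TG, OGT_TG and double transgenic hearts, and the 4 ranges overlapped. WT replicate 3 stood at 32.2 FPKM against 11.7 to 16.4 FPKM in the other WT hearts. The OGT_TG difference to WT was -0.28 (SE 0.20, adjusted p = 0.28), and ranged from -0.38 to -0.09 with each heart left out in turn. Exons of Lipe overlap those of the antisense gene 4732471J01Rik, whose own row stood at 3.86 ± 1.49 FPKM in WT (SD, n = 6). Libraries were stranded, but whether the counting used strand is not given in the sources used here, so reads of the pair may be mixed. Mgll encodes the lipase of the last step, which splits monoglyceride, and lies at chr6:88724412-88828360 on the plus strand, with exons that overlap the antisense gene Gm26588. It stood at 46.7 ± 4.33 FPKM in WT, 41.8 ± 3.32 in OGA_TG, 43.0 ± 5.39 in OGT_TG and 42.3 ± 3.67 in double transgenic hearts (SD, n = 6 each), and its OGT_TG difference was -0.12 (SE 0.08, 95% interval -0.28 to 0.05, adjusted p = 0.26). The last 2 steps of lipolysis therefore gave no call. For Mgll the interval left out a loss of more than 0.28 in the values as deposited with all hearts. By median of ratios its difference was -0.20 (limma adjusted p = 0.056). Without OGT_TG replicates 3 and 6 together it was -0.21 (limma adjusted p = 0.069).

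Ces1d, a carboxylesterase of the endoplasmic reticulum that hydrolyses triglyceride in liver and fat, lies at chr8:93166068-93197838 on the minus strand. It ranged from 68.3 to 110.4 FPKM in WT with a median of 96.7 FPKM, and from 82.3 to 92.0 FPKM in OGA_TG with a median of 87.6 FPKM. In OGT_TG it ranged from 3.97 to 34.5 FPKM with a median of 23.8 FPKM, and in double transgenic hearts from 25.0 to 39.4 FPKM with a median of 29.8 FPKM. The highest heart with the OGT transgene stood below the lowest without it. The difference to WT was -2.39 in OGT_TG (SE 0.32, adjusted p = 6.8e-06), 0.191 times the WT level, and -1.54 in double transgenic hearts (SE 0.32, adjusted p = 0.002), 0.344 times the WT level. Replicates 3 and 6 of OGT_TG, at 7.92 and 3.97 FPKM, were far below the other 4, and without them the OGT_TG difference was -1.69 (adjusted p = 3.5e-09). About 1.079% of the 50-base stretches of Ces1d transcripts also occur in Ces1b, Ces1f and Ces1g, and reads from those stretches may be split between the genes.

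Among the droplet coats, Plin5, the perilipin of oxidative tissues that tethers droplets to mitochondria, was the lowest in OGT_TG relative to WT. WT hearts ranged from 33.4 to 62.8 FPKM with a median of 42.5 FPKM, and OGA_TG hearts from 29.6 to 53.6 FPKM with a median of 39.9 FPKM. OGT_TG hearts ranged from 20.2 to 38.8 FPKM with a median of 24.2 FPKM, and double transgenic hearts from 33.2 to 46.6 FPKM with a median of 39.7 FPKM. OGT_TG replicate 2, at 38.8 FPKM, was the only OGT_TG heart inside the WT range. Plin5 fell in OGT_TG by 0.75 (SE 0.15, adjusted p = 0.00058) relative to WT. It was higher in double transgenic than in OGT_TG hearts by 0.62 (SE 0.15, adjusted p = 0.0041), and its difference between double transgenic and WT hearts was -0.13 (SE 0.15, adjusted p = 0.61).

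Plin4, which coats young droplets of muscle and fat, ranged from 44.7 to 73.0 FPKM in WT with a median of 52.2 FPKM and from 48.6 to 71.9 FPKM in OGA_TG with a median of 58.8 FPKM. OGT_TG hearts ranged from 34.7 to 47.8 FPKM with a median of 39.6 FPKM, and double transgenic hearts from 39.0 to 51.7 FPKM with a median of 45.2 FPKM. Of the OGT_TG hearts, 5 of 6 lay below every WT heart. Plin4 was lower in OGT_TG than in WT by a difference of -0.42 (SE 0.11, adjusted p = 0.0034), and lower in double transgenic than in OGA_TG hearts (difference -0.37, adjusted p = 0.017). Its exons overlap those of Hdgfl2 on the other strand, found in the table as Hdgfrp2, whose row stood at 16.0 ± 3.01 FPKM in WT and 17.5 ± 2.89 FPKM in OGT_TG (SD, n = 6). Plin2, the coat found on droplets of most cells, stood at 34.0 ± 5.55 FPKM in WT, 29.6 ± 3.34 in OGA_TG, 37.5 ± 4.76 in OGT_TG and 32.2 ± 2.71 in double transgenic hearts (SD, n = 6 each). Its OGT_TG difference was 0.14 relative to WT (SE 0.10, adjusted p = 0.26) and 0.33 relative to OGA_TG (adjusted p = 0.01). The call against OGA_TG did not survive 2 other scalings, with 0.19 by median of ratios (adjusted p = 0.12) and 0.21 by quantiles (adjusted p = 0.095). About 2.567% of the 50-base stretches of Plin2 transcripts also occur in Gm12551.

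Dgat2 encodes the enzyme that adds the last fatty acid to make triglyceride, and lies at chr7:99153658-99182719 on the minus strand. In WT it ranged from 110.4 to 147 FPKM with a median of 133 FPKM, and in OGA_TG from 108 to 151 FPKM with a median of 128 FPKM. OGT_TG hearts ranged from 41.4 to 102 FPKM with a median of 72.6 FPKM, and double transgenic hearts from 74.7 to 109 FPKM with a median of 96.8 FPKM. All 12 hearts with the OGT transgene lay below every WT heart. Dgat2 fell in OGT_TG by 0.96 (SE 0.16, adjusted p = 8e-05), and by 0.66 without replicates 3 and 6 (adjusted p = 0.00014). The double transgenic difference to WT was -0.46 (SE 0.16, adjusted p = 0.051), which did not pass in the fit of all hearts and passed under 9 of 34 other settings, among them without OGT_TG replicates 3 and 6 (adjusted p = 0.0018). Against OGA_TG it was -0.43 (adjusted p = 0.063), which passed without the same hearts (adjusted p = 0.0028).

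Ces1d, Lpl and Dgat2 had no OGT_TG heart within the WT range. Of all tested rows, 4.47% were lower in OGT_TG without overlap with WT, and 6.57% lower in double transgenic hearts. Ces1d and Lpl also lay below OGA_TG without overlap in both, as did 4.43% of rows for OGT_TG and 5.73% for double transgenic hearts. Dgat2 and Plin4 lay below OGA_TG without overlap in OGT_TG hearts but not in double transgenic hearts. The hearts that were lowest were not the same for all members. OGT_TG replicates 3 and 6 were the 2 lowest OGT_TG hearts for Ces1d, Lpl and Dgat2, but replicate 5 was the lowest for Plin5, Pnpla2, Lipe and Mgll, and replicate 1 the lowest for Plin4 and Angptl4.

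**Figure D3:**
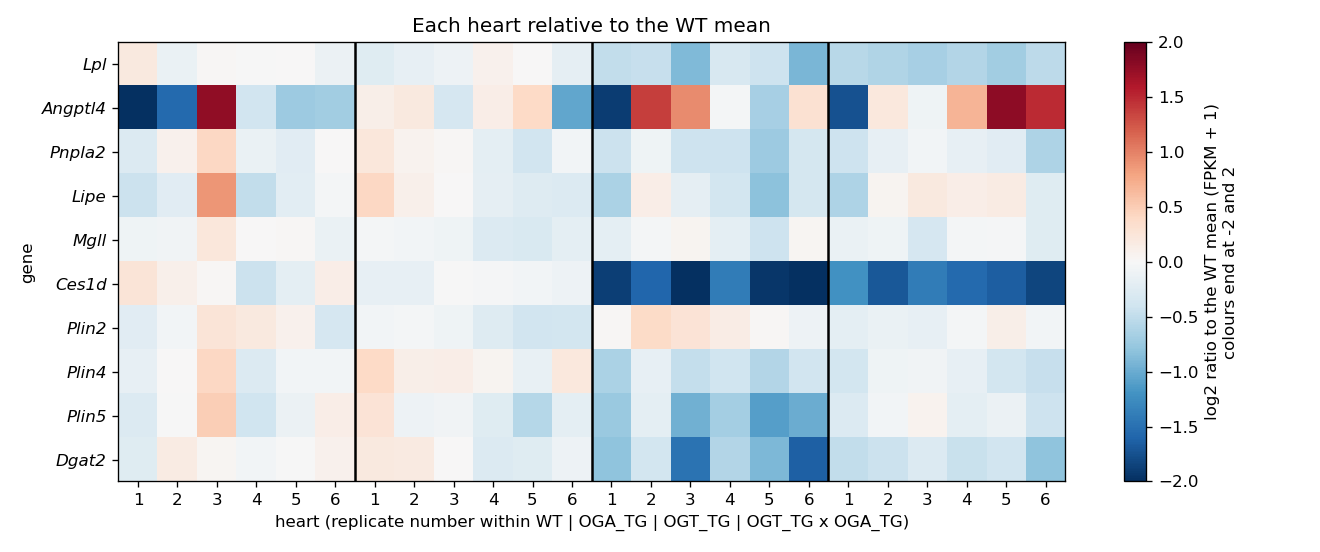
Log2 ratio of each heart to the WT mean (FPKM + 1) for each member (rows) in the 24 hearts (columns, 6 per genotype), with colours ending at -2 and 2. Ces1d is blue in all 12 hearts with the OGT transgene, Angptl4 varies within every genotype, and WT replicate 3 is red for Angptl4, Lipe, Plin4 and Plin5.

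OGA_TG hearts, set against WT to ask what added OGA does alone, gave no call among the 10 members. The limma test called 43 of 12020 rows, 0.358%, and at an unadjusted p under 0.05 it called 9.48%. Differences of the members had a median of -0.05, equal to the -0.05 of all tested rows, and Angptl4 had the largest at 0.52. For Ces1d, the OGA_TG level of 87.2 ± 4.2 FPKM (SD, n = 6) stood beside 92.4 ± 15.2 FPKM in WT. The intervals were wide for Ces1d, from -0.73 to 0.60, and narrow for Lpl, from -0.29 to 0.09.

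Double transgenic hearts carry the OGA transgene beside that of OGT, and they also differed in the level of the OGT row. It stood at 4652 ± 449 FPKM in double transgenic and 1748 ± 737 FPKM in OGT_TG hearts (SD, n = 6), without overlap, and was lowest in OGT_TG replicates 6 and 3, at 715 and 1104 FPKM. The OGA transgene and the OGT level therefore cannot be told apart between these groups. Compared with WT, Ces1d and Lpl were lower and no member was higher, against 15.6% of all tested rows called and 11.4% called lower. Compared with OGT_TG, 3 members were higher, Ces1d (0.85, SE 0.32, adjusted p = 0.046), Plin5 (0.62) and Dgat2 (0.49, SE 0.16, adjusted p = 0.022), and none was lower. Plin4, at 0.19 (adjusted p = 0.17), was also called higher when values were rescaled by median of ratios (0.32, adjusted p = 0.042) or by quantiles (0.31, adjusted p = 0.049). Of all tested rows 32.3% were called in that comparison, 5.02% higher and 27.2% lower. Compared with OGA_TG, Ces1d (-1.47, adjusted p = 0.0023), Lpl (-0.51, adjusted p = 4e-04) and Plin4 were lower, with 18.1% of all tested rows called and 9.77% lower. OGT_TG against OGA_TG had the same 6 members lower as OGT_TG against WT, and Plin2 higher, with 44.4% of all tested rows called, 33.3% higher and 11.1% lower. These comparisons share groups, among them the double transgenic hearts, and are not independent of each other.

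The Ces1d call between double transgenic and OGT_TG hearts was lost under 23 of 34 other settings. It was lost on leaving out any single WT or OGA_TG heart (adjusted p from 0.05 to 0.053), OGT_TG replicate 3 (0.63, adjusted p = 0.14) or replicate 6 (0.47, adjusted p = 0.12), or any of double transgenic replicates 1 to 5. WT and OGA_TG hearts are not in this comparison, so without them the value stayed at 0.85 and only the pooled spread and the adjustment changed. With only the groups compared, Ces1d (adjusted p = 0.17) and Dgat2 (adjusted p = 0.092) both lost their calls. Without OGT_TG replicates 3 and 6 together the Ces1d difference was 0.15 (adjusted p = 0.42) and that of Dgat2 0.19 (adjusted p = 0.21), while Plin5 kept its call at 0.52 (adjusted p = 0.032). Dgat2 also lost its call without OGT_TG replicate 3, OGT_TG replicate 6 or double transgenic replicate 3. Plin5 kept its call under all 34 other settings, with adjusted p from 0.0006 to 0.043.

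The interaction is the difference between double transgenic and OGT_TG hearts less the difference between OGA_TG and WT hearts, and tests whether hearts with and without the OGA transgene differed by another amount where the OGT transgene was present. Plin5 was the only member called, at 0.74 (SE 0.22, adjusted p = 0.04), with 7.3% of all tested rows called and 1.81% higher. That call was lost under 20 of 33 other settings, among them no filter on low rows and leaving out WT replicate 2, 3, 5 or 6, OGA_TG replicates 2 to 6, OGT_TG replicate 3, 5 or 6, or double transgenic replicates 1 to 5. Its value stayed between 0.55 and 0.86. Ces1d was at 0.92 (SE 0.45, adjusted p = 0.21) and Dgat2 at 0.53 (SE 0.23, adjusted p = 0.15).

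**Figure D4:**
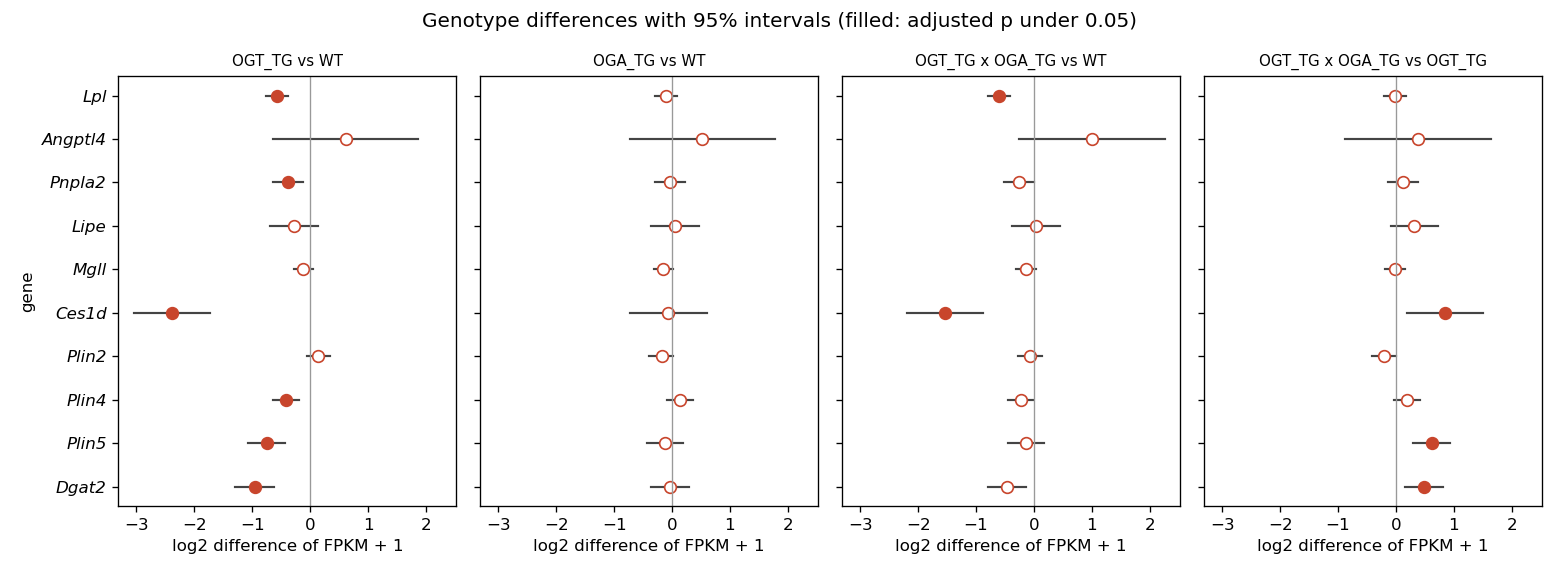
Log2 difference of FPKM + 1 (horizontal axes) of each member in 4 comparisons, with 95% intervals as lines and filled points where the adjusted p is under 0.05. OGT_TG against WT has 6 filled points, all negative, OGA_TG against WT has none, and double transgenic against OGT_TG has 3, all positive.

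By genotype mean, Ces1d, Pnpla2, Lipe, Plin5 and Dgat2 were ordered WT, OGA_TG, double transgenic and OGT_TG. Of neighbours in that order, WT and OGA_TG did not pass for any of the 5. OGA_TG and double transgenic hearts passed for Ces1d alone, and double transgenic and OGT_TG hearts for Ces1d, Plin5 and Dgat2. The order by mean did not hold by median for Lipe and Pnpla2. Lipe medians were highest in double transgenic hearts at 18.1 FPKM, then 15.8 in OGA_TG, 14.3 in WT and 12.9 in OGT_TG. Pnpla2 had a median of 107 FPKM in OGA_TG and 103 FPKM in WT. For Lpl the order was WT, OGA_TG, OGT_TG and double transgenic, and only the step from OGA_TG to OGT_TG passed. No neighbouring pair passed for Mgll, Plin2 or Angptl4, nor for Plin4 in the values as deposited.

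No test of sex gave a call among these genes. Within WT, OGA_TG and OGT_TG, males and females carried different title numbers, so sex and title number cannot be told apart there. Only double transgenic replicates 5 and 6, a male and a female, shared a number across the sexes. No member was called by limma between 12 males and 12 females, where 32 of 12020 rows, 0.266%, were called and 7.18% passed at an unadjusted p under 0.05. The test of whether a genotype difference was larger in one sex than in the other called no member and no row in limma for any genotype. At an unadjusted p under 0.05, 1.63% of all tested rows passed for OGT_TG, 3.08% for OGA_TG and 1.44% for double transgenic hearts. Of the members, only Pnpla2 in OGA_TG passed at that level (0.51, limma unadjusted p = 0.04). Its difference to WT was 0.22 in males and -0.28 in females.

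Profiles over all 24 hearts, each standardised, were used to find the single-gene rows most like each member that was called in a comparison. Nearest to Ces1d were Atp2a2, the calcium pump of the sarcoplasmic reticulum, Hrc, a calcium-binding protein of the same store, and Gm10435, with root mean square distances of 0.16, 0.17 and 0.18 SD. Nearest to Dgat2 were Acaa2, a thiolase of β-oxidation, Crat and Pdk2, at 0.18 to 0.20 SD. Lpl was nearest to Pln, the regulator of the calcium pump, Hadhb and Pdha1, at 0.27 to 0.29 SD, and Plin5 to Slc27a1, a fatty acid transporter, Atp5e and Apbb1, at 0.31 to 0.35 SD. Pnpla2 was nearest to Akr7a5, Tmem143 and Wdtc1, at 0.42 to 0.44 SD, and Plin4 to Pnpla2 itself, Ears2 and Acacb, at 0.46 to 0.48 SD. Plin2 had no row closer than Ube2l6 at 0.62 SD, and Npr1 lay at 0.66 SD. Points of these profiles share genotype and library, so the distances are a description.

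Other genes of the same steps moved in both directions in OGT_TG hearts. So did all tested rows, with 25.2% of them higher and 12.2% lower than in WT. Those shares are the background for the OGT_TG counts of this list, of the lists that follow and of the cell type markers. Of 12 other lipases and esterases tested, 5 were higher and 3 lower than in WT, with a median difference of 0.20. Lipa, the acid lipase of the lysosome, was higher by 0.67 (adjusted p = 2.8e-05), Ces2g by 0.48 and Daglb, a diglyceride lipase, by 0.46. Lipa and Ces2g were lower again in double transgenic than in OGT_TG hearts, by differences of -0.57 (adjusted p = 0.00031) and -0.49 (adjusted p = 0.00075). Ces1d and Lipa, both esterases, thus differed from WT in opposite directions in the OGT_TG hearts.

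Of 13 tested genes of droplet coating, growth and lipase control, 2 were higher and 3 lower in OGT_TG, with a median of 0.01. Fitm1 and Fitm2, proteins of the endoplasmic reticulum that help droplets bud, were lower by differences of -0.77 (adjusted p = 0.0021) and -0.46 (adjusted p = 0.0064). Both were higher in double transgenic than in OGT_TG hearts, by 0.86 and 0.58, and both were called in the interaction, at 0.99 (adjusted p = 0.024) and 0.66 (adjusted p = 0.03). Cidea, which promotes droplet fusion, was higher than WT by 0.54 in OGT_TG (adjusted p = 4.5e-05) and 0.58 in double transgenic hearts (adjusted p = 6.4e-05). Of the regulators of Pnpla2, the activator Abhd5 differed by -0.07 in OGT_TG (adjusted p = 0.36) and the inhibitor G0s2 by -0.24 (adjusted p = 0.36), while Abhd5 was lower in double transgenic hearts than in WT by a difference of -0.28 (adjusted p = 0.0022).

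Of 12 tested genes of triglyceride synthesis, 3 were higher and 3 lower in OGT_TG, with a median of -0.00. Over all tested rows, 25.2% were higher and 12.2% lower. Lpin1, a phosphatidate phosphatase that makes diglyceride, was lower (difference -0.51, adjusted p = 0.0015), whereas Agpat4 and Lpin3 were higher by 0.56 and 0.40. Dgat1, which catalyses the same step as Dgat2, differed by 0.14 (adjusted p = 0.17). Of 10 tested genes of lipoprotein lipase handling and lipid uptake, 2 were higher and 2 lower, with a median of 0.02. The lipoprotein receptor Lrp1 was higher by 1.08 (adjusted p = 0.00068), and Vldlr was lower (difference -0.45, adjusted p = 0.00087). Gpihbp1, which carries lipoprotein lipase to the capillary wall, differed by 0.14 (adjusted p = 0.22).

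PPAR target genes, of which 13 were tested, moved one way where they passed. In OGT_TG 9 were lower and none higher, with a median of -0.57, and in double transgenic hearts 6 were lower than WT and none higher, with a median of -0.30. Over all tested rows, 12.2% were lower than WT in OGT_TG and 11.4% in double transgenic hearts. Acsl1, which activates fatty acids, differed from WT by -0.79 in OGT_TG (adjusted p = 2.8e-05) and Acadm, a dehydrogenase of β-oxidation, by -0.72. Of 6 receptors and coactivators, Ppargc1a and Ppara were lower in OGT_TG, by differences of -0.50 (adjusted p = 0.0043) and -0.48 (adjusted p = 0.017). In OGA_TG no tested gene of these lists passed against WT.

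Several cell types of the heart make these transcripts, and their markers moved with genotype. All 8 tested fibroblast markers were higher in OGT_TG than in WT, with a median difference of 0.98 and a summed level of 843 to 1628 FPKM against 477 to 626 FPKM. Of 10 macrophage markers 7 were higher, with sums of 244 to 576 FPKM against 188 to 230.1 FPKM. Of 8 cardiomyocyte markers 6 were lower, with sums of 28876 to 40312 FPKM against 42602 to 47579 FPKM, and of 7 endothelial markers 1 was higher. Cardiomyocyte sums in double transgenic hearts, at 36075 to 39322 FPKM, also lay below WT. Only 2 of the 8 cardiomyocyte markers were called lower there, with a median difference of -0.08, against 11.4% of all tested rows called lower. Fibroblast sums of 503 to 798 FPKM in double transgenic hearts overlapped WT. The part of cell type proportions in the lower lipase and perilipin transcripts was not tested.

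Fat tissue on the heart also expresses many of these genes. Of 10 tested adipocyte markers 1, Cidea, was higher in OGT_TG and none lower. The sum of 7 defining markers (Adipoq, Plin1, Cidec, Cfd, Retn, Lep and Ucp1) ranged from 3.04 to 58.8 FPKM in WT, 7.44 to 25.7 in OGA_TG, 9.81 to 44.3 in OGT_TG and 12.4 to 55.2 in double transgenic hearts. Lep and Ucp1 were listed at 0 in some WT and OGA_TG hearts. WT replicate 3 had the highest sum, and was also the highest WT heart for Angptl4, Lipe, Plin4, Plin5, Pnpla2, Mgll and Plin2. Cfd gave 42.1 of the 58.8 FPKM in that heart. By Adipoq, double transgenic replicate 4 stood higher, at 9.74 FPKM against 7.27 FPKM in WT replicate 3. Leaving out the 4 hearts with the highest sums, an alternative chosen after they were seen, kept Ces1d (-2.18), Lpl (-0.51), Dgat2 (-0.85), Plin5 (-0.61) and Plin4 (-0.33) lower in OGT_TG than in WT. Pnpla2 lost its call (-0.29, adjusted p = 0.084), as did Ces1d and Dgat2 between double transgenic and OGT_TG hearts (adjusted p = 0.31 and 0.23).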

How the data were processed

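Whole-heart polyadenylated RNA of 24 mice was sequenced from stranded libraries as 100 bp paired-end reads, per the labels' protocols. The authors deposited 1 table of FPKM values, and per the submitters' processing notes the build was mm10 and the tools included FastQC, TopHat, SAMtools, StringTie and Cuffdiff 2.2.1. The settings, the annotation and the use of strand in counting are not given in the sources used here. FPKM holds no counts, so depth is an estimate, made from steps in the low values of genes with 1 transcript, of which 65.4% to 79.8% per library lay within 0.15 of a whole number of fragments. Such steps were too loose to recover counts. Of 19664 rows, 4 with missing values were left out, and 343 rows that join several symbols were tested but named in no list.

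Rows with at least 1 FPKM in at least 6 hearts, 12020 in all, were tested with limma 3.58.1 in R 4.3.3 (two-sided moderated test, trend on mean level) on log2(FPKM + 1), with 4 genotypes and sex in 1 model. Folds on that scale understate changes of low genes. P-values were adjusted by Benjamini-Hochberg over all tested rows. The method was tested on simulated data with 200 changed rows. The members, the gene lists and the tests were chosen with earlier results of these data known. Named were all 10 members, up to 3 called genes per list and comparison with the largest difference, genes on which a result turns, and the 3 rows nearest to a called member. Some genes that this rule names are not reported here. Klf11, Txnip, Klf10, Ucp3, Pdk4, Dgat1, G0s2, Abhd5 in OGT_TG and Gpihbp1 are outside that rule and were chosen after their values were seen. Gene positions came from GENCODE M21 on mm10 by symbol.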

Additional observations from a re-analysis of the deposited data

Results flagged for a closer look

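Among 40 sets of 6 hearts (10 members in 4 genotypes), 3 held a heart far from the others by Dixon's test, in which the gap to the nearest heart is set against the range. All 3 were WT replicate 3, at 32.2 FPKM for Lipe, 73.0 FPKM for Plin4 and 23.9 FPKM for Angptl4, with gaps of 0.773, 0.65 and 0.836 of the range. Chance flags about 1 in 20 such sets, and the 3 values come from 1 library. The same heart had the highest sum of defining adipocyte markers of all 24, at 58.8 FPKM, and the highest Pdk4 and Ucp3, at 707 and 73.8 FPKM. Their part in its lipase and perilipin values was not tested. Without it, Pnpla2 lost its call between OGT_TG and WT, as given above.

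Plin5 was the only member called in the interaction of the transgenes, where 7.3% of all tested rows were called and 1.81% were higher. The interaction was 0.74 (limma adjusted p = 0.04), with double transgenic hearts higher than OGT_TG and no call between OGA_TG and WT. Its adjusted p ran from 0.0089 to 0.25 over 33 other settings, under 20 of which it no longer passed. The OGT row stood at a mean of 4652 FPKM in double transgenic and 1748 FPKM in OGT_TG hearts. The OGA transgene and the OGT level therefore cannot be told apart in this result.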

How the results depend on the processing

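Other settings were a pseudocount of 0.1, no filter, a filter of 5 FPKM, 3 other scalings, no sex term, only the groups compared and each heart left out, and 2 settings added after the data were seen. The number of members called with each heart left out in turn ranged from 5 to 6 for OGT_TG against WT, stayed at 0 for OGA_TG against WT, and ranged from 2 to 3 for double transgenic hearts against WT, 1 to 3 against OGT_TG and 3 to 4 against OGA_TG. It ranged from 6 to 7 for OGT_TG against OGA_TG and from 0 to 2 for the interaction, and stayed at 0 for sex and its interactions. Between double transgenic and OGT_TG hearts the count was 1 with only the groups compared, 1 without OGT_TG replicates 3 and 6 together and 1 without the 4 hearts with the highest adipocyte marker sum, and 4 by median of ratios and by quantiles. The interaction gave 0 with no filter, 0 without OGT_TG replicates 3 and 6 together, 0 without those 4 hearts, and 2 without OGT_TG replicate 2. The cause was not tested. Of 110 differences, all recomputed in the other settings, 36 were kept for a closer account. These were the ones that passed under at least 1 setting, which include all 22 called ones, and others chosen for the text. None of the 36 changed sign, but as many were kept for having passed, their stable signs are no independent support. Of the 74 others, which passed under no setting, 40 changed sign at least once. Pnpla2 between OGT_TG and OGA_TG lost its call without OGA_TG replicate 1 or 2 or OGT_TG replicate 5, and without OGT_TG replicates 3 and 6 together (-0.36, limma adjusted p = 0.051). WT and OGT_TG share numbers in their titles, whose meaning is not stated. OGA_TG and double transgenic hearts share no such number with WT, with OGT_TG or with each other. In every comparison with those groups, genotype and title number therefore cannot be told apart. Deviations of same-numbered hearts correlated at 0.23, 0.21, 0.03 and 0.15, so not every pair was above 0.1, and whether the numbers pair the hearts is not known. With it as a replicate block, 6 members were called in OGT_TG against WT, Ces1d at -2.39 (limma adjusted p = 0.0022), and no call of a member was lost. Depth limits Angptl4 in its lowest heart, at an estimated 31 fragments.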
